A study of Mus musculus with 2 samples.

Results

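The Toll-like receptor genes Tlr1, Tlr2, Tlr3, Tlr4, Tlr6, Tlr7, Tlr8, Tlr9 and Tlr13 and the adaptor gene Myd88 were followed across the cells of mouse tumours. These 10 genes were picked by symbol out of 32285 gene models, and all 10 were found. The study compared tumours of mice given cepharanthine, an alkaloid from Stephania plants (CEP), with tumours of mice given vehicle (Vehicle; the title label reads "Vehide"). Cells selected for CD45, the surface protein of leukocytes, were profiled by droplet single-cell RNA sequencing, which counts each captured RNA molecule by its own tag (UMI). The design text names 5 biological replicates per group, but each group is 1 library whose cells cannot be assigned to mice. Differences between CEP and Vehicle are hence given without a test, and the 95% intervals beside them reflect only how many UMIs were counted. The labels used here name neither the tumour type nor the strain, age, dose or schedule.

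Toll-like receptors bind molecules shed by microbes or damaged cells. TLR2, paired with TLR1 or TLR6, binds lipopeptides at the cell surface, and TLR4 binds lipopolysaccharide there. TLR3, TLR7, TLR8, TLR9 and TLR13 bind nucleic acids inside endosomes, which they reach with the carrier protein UNC93B1. MYD88 passes the signal of all of these receptors except TLR3, which uses the adaptor encoded by Ticam1, and TLR4 uses both. The outcome in macrophages, neutrophils and dendritic cells is the production of inflammatory cytokines and interferons.

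In CEP, 88721774 UMIs were spread over 9621 barcodes, and in Vehicle 81208647 UMIs over 9989 barcodes, with 136 barcode sequences common to the 2 libraries. After filters, 8842 CEP and 9154 Vehicle cells were kept. Cells were placed in 5 gates by raw UMIs of a few genes. The macrophage gate (the 3 C1q genes) held 4162 CEP and 4564 Vehicle cells, and the neutrophil gate (Csf3r and Cxcr2, low C1q) 1652 CEP and 2103 Vehicle cells. The T gate (Cd3 genes) held 170 CEP and 258 Vehicle cells, and the dendritic gate (Flt3) 91 CEP and 94 Vehicle cells. The epithelial gate (Krt8 and Krt18) held 780 CEP and 111 Vehicle cells, although CD45 selection should remove such cells. It was 28.0% of kept CEP UMIs and 4.52% of kept Vehicle UMIs, and 22.9% of CEP and 22.5% of Vehicle cells fell in no gate. Of the 5 gates, each held the highest sum of its own markers, genes outside the gate rules. The T gate also held neutrophil markers: these 6 genes summed to 28263 CPM (UMIs per 1000000 UMIs of the gate) in CEP and 42087 CPM in Vehicle T-gate cells. In that gate, 18 of 170 CEP and 27 of 258 Vehicle cells held at least 10 UMIs of S100a8 and S100a9, neutrophil proteins.

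Levels are given in CPM within a gate, and a difference is the log2 ratio of CPM, CEP over Vehicle. A member was called higher or lower where it had at least 50 UMIs over both libraries and a log2 ratio of at least 0.5 in size. Levels are compared for the same gene between gates and libraries, never between genes. A lower level in a gate may come from fewer expressing cells or from less RNA per cell, which a sum over cells cannot tell apart.

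In both libraries each receptor had its own place among the gates, seen in the plot of levels. In CPM, the surface receptors Tlr1, Tlr2, Tlr4 and Tlr6, with Tlr13 and Myd88, stood higher in the neutrophil than in the macrophage gate. Neutrophils carried fewer UMIs in all. Per cell, Tlr1, Tlr2, Tlr13 and Myd88 stood lower in neutrophils than in macrophages in both libraries, and Tlr4 and Tlr6 stood higher. For Tlr2 this was 0.385 UMIs per CEP and 0.435 per Vehicle neutrophil, against 0.864 per CEP and 0.875 per Vehicle macrophage. The endosomal receptors Tlr7, Tlr8 and Tlr9 stood higher in the macrophage gate than in the neutrophil gate. Tlr3 was highest in the dendritic gate. Between CEP and Vehicle the levels were mostly close. By the 0.5 limit Tlr9 in macrophages was lower in CEP and Tlr2 in epithelial cells was higher. Tlr8 in neutrophils was also lower by that limit, from 59 UMIs, with an interval (-1.39 to 0.26) that holds 0. Short of the limit, Tlr8 (-0.40) and Myd88 (-0.12) in macrophages and Tlr2 (-0.21), Tlr6 (-0.34) and Myd88 (-0.19) in neutrophils had intervals below 0, and Tlr2 in macrophages (0.12) had one above 0.

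**Figure D1:**
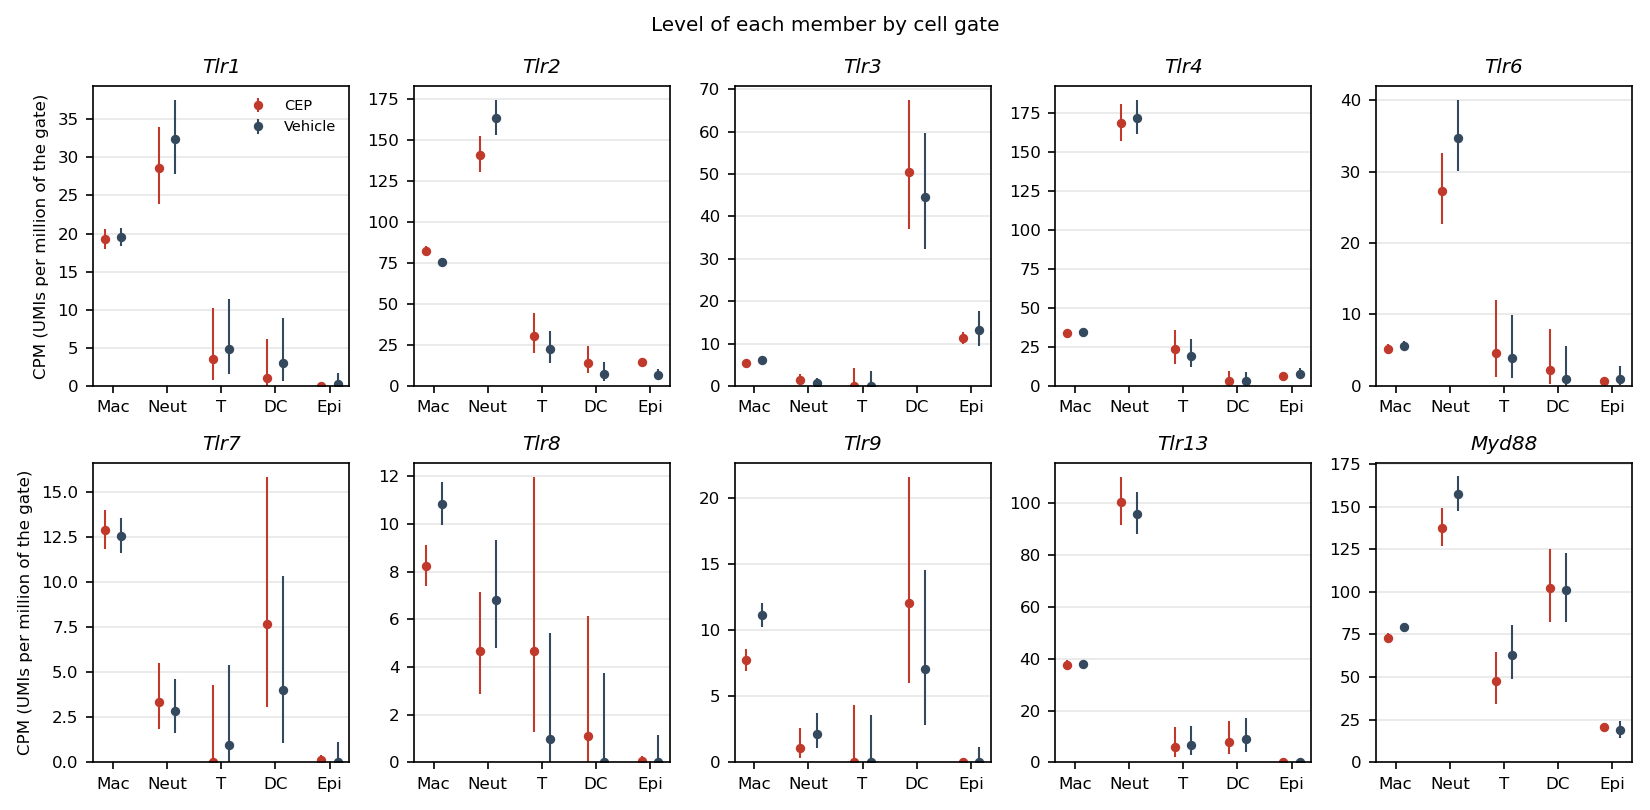
Level of each of the 10 genes (CPM, UMIs per 1000000 UMIs of the gate; each panel has its own linear axis from 0) in the macrophage (Mac), neutrophil (Neut), T, dendritic (DC) and epithelial (Epi) gates of the CEP library (red) and the Vehicle library (blue), with 95% Poisson intervals as lines. Tlr1, Tlr2, Tlr4, Tlr6, Tlr13 and Myd88 peak in neutrophils and Tlr3 peaks in dendritic cells. The CEP and Vehicle points of Tlr8 and Tlr9 separate in macrophages.

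Of the genome positions, those of Tlr8 and Tlr9 matter most here because these 2 receptors differed most between the libraries in macrophages. In mm10, Tlr9 lies on the plus strand at chr9:106222598-106226883 and overlaps no other annotated gene, and 81.1% of its span is exonic. Tlr8 lies on the minus strand at chrX:167242696-167264329, next to Tlr7 at chrX:167304929-167330558, and 16.6% of its span is exonic. For Tlr4 the exonic share is 5.41%. The labels do not say whether reads from introns were counted, which bears on the counts of such genes. The part of intron reads in the ratios was not tested. Myd88, at chr9:119335934-119341411, overlaps Slc22a14 on its own strand and Acaa1a on the other, so its count may depend on how reads in the overlap were assigned, which was not tested. Tlr3 overlaps the antisense transcript Gm45542. Tlr1 and Tlr6 are neighbouring paralogues on chromosome 5, and the labels do not say how reads shared by paralogues were counted.

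The 250 bases before the start of Tlr9 (chr9:106222348-106222597, plus strand) and of Tlr8 (chrX:167264330-167264579, minus strand) are shown because the macrophage results turn on these genes (RefSeq, GRCm38.p6, 5′ to 3′). Capitals mark matches to 1 of 4 motifs searched on both strands.
Tlr9: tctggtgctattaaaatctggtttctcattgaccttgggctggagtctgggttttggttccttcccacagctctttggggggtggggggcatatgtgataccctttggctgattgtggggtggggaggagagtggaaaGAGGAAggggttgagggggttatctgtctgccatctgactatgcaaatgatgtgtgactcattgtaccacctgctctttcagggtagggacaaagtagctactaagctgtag
Tlr8: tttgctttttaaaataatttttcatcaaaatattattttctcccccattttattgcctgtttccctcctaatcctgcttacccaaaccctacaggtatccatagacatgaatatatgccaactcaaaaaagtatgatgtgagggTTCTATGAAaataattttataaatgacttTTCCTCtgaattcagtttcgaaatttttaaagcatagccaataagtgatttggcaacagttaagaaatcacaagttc
The Tlr9 stretch holds a core of the site of PU.1 (GAGGAA), a myeloid transcription factor, 112 bases before the start. The Tlr8 stretch holds the same core on the other strand, 77 bases before the start, and a GAS site (TTCNNNGAA), the pattern bound by STAT factors, 106 bases before it. Of 32851 mouse promoters, 23.3% held the PU.1 core, 7.02% a GAS site, 2.98% an interferon-stimulated response element (GAAANNGAAA) and 45.8% a kB site (GGGNNNNNCC). A promoter was found for 8 of the 10 genes. A response element stood before a RefSeq start of Myd88 (GAAAGCGAAA, 40 bases before it) and of Tlr6. A kB site stood before Tlr2 (GGGGAATTCC, 173 bases before the start), Tlr3 and Tlr6. A GAS site stood before Myd88 and Tlr1, and a PU.1 core before Tlr1 and Tlr13. The RefSeq starts of these genes differed from the GENCODE gene starts and lay inside the GENCODE gene spans. The windows with the response elements of Myd88 and Tlr6, the kB sites of Tlr3 and the GAS sites of Myd88 and Tlr1 lay wholly inside the gene. A match describes letters in this window and says nothing of binding.

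TLR9 binds unmethylated DNA and depends on UNC93B1. Tlr9 had 336 UMIs in 4162 CEP macrophages and 587 UMIs in 4564 Vehicle macrophages. That was 7.73 CPM (6.92 to 8.60) in CEP and 11.2 CPM (10.3 to 12.1) in Vehicle, for a log2 ratio of -0.53 (-0.73 to -0.33). It alone of the 10 genes passed the 0.5 limit in macrophages, where 1.75% of the 12284 genes tested were lower by this rule. The UMIs were spread over many cells, and the 2 cells with most Tlr9 held 1.79% of its CEP and 1.36% of its Vehicle macrophage UMIs. At least 1 UMI was seen in 7.35% of CEP and 10.9% of Vehicle macrophages, with median depths of 9738 UMIs in CEP and 10880.0 UMIs in Vehicle. With each cell thinned to 1000 UMIs, so that depth was equal, these shares were 0.799% in CEP and 0.970% in Vehicle, a smaller gap in proportion. A separate draw of the same thinning gave a log2 ratio of -0.51 (-1.15 to 0.11) from 95 UMIs, an interval that holds 0. In the epithelial gate, which was deeper, Tlr9 had 0 UMIs in 780 CEP and in 111 Vehicle cells, which allows levels up to 0.137 CPM in CEP and 0.940 CPM in Vehicle.

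The lower Tlr9 level in CEP was seen in most subsets of macrophages, cut by raw UMIs of a pair of genes. In macrophages with Cxcl9 or Cxcl10, chemokines induced by interferon-gamma, Tlr9 was 10.6 CPM in CEP and 16.6 CPM in Vehicle, for a log2 ratio of -0.64 (-1.01 to -0.30). In the other macrophages it was 7.02 CPM in CEP and 9.18 CPM in Vehicle, for a log2 ratio of -0.39 (-0.63 to -0.15). Tlr9 thus stood higher in the Cxcl9 and Cxcl10 subset of each library, and this subset was 660 CEP and 1016 Vehicle cells. The part of this subset's cell numbers in the ratio over the whole gate was not tested. In macrophages with Ly6c2 or Plac8, which mark recent monocyte descent, Tlr9 was 7.92 CPM in CEP and 14.9 CPM in Vehicle (log2 -0.91, -1.45 to -0.40). Macrophages with Folr2 or Cbr2, genes of tissue-resident macrophages, differed in sign, with 60 UMIs and 9.14 CPM in CEP and 52 UMIs and 6.85 CPM in Vehicle. Their log2 ratio was 0.41 (-0.15 to 0.98), an interval that holds 0, while macrophages outside this subset had a log2 ratio of -0.67 (-0.88 to -0.46). In macrophages with Arg1 or Mmp12, genes of tumour-associated macrophages, the log2 ratio was -0.31 (-0.60 to -0.03), and outside them it was -0.67 (-0.95 to -0.40).

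TLR8 is an endosomal receptor, known in humans for binding single-stranded RNA, and its gene neighbours that of TLR7 on the X chromosome. Tlr8 had 357 UMIs and 8.21 CPM (7.38 to 9.11) in CEP macrophages, against 570 UMIs and 10.8 CPM (9.97 to 11.8) in Vehicle macrophages. The log2 ratio was -0.40 (-0.60 to -0.21), short of the 0.5 limit. The difference was unevenly spread over the macrophages. In the Ly6c2 or Plac8 subset, 27 UMIs in 469 CEP cells stood against 101 UMIs in 575 Vehicle cells, or 4.86 CPM (3.20 to 7.07) in CEP and 13.2 CPM (10.8 to 16.1) in Vehicle. The log2 ratio there was -1.43 (-2.12 to -0.82), and outside that subset it was -0.26 (-0.47 to -0.06). Each of the 27 CEP cells carried 1 UMI, while 83 Vehicle cells carried 1 and 9 carried 2 or more. Median depth in this subset was lower in CEP, at 10320.0 UMIs against 12371 UMIs in Vehicle. In the Folr2 or Cbr2 subset Tlr8 was 9.44 CPM in CEP and 9.75 CPM in Vehicle, for a log2 ratio of -0.04 (-0.56 to 0.46).

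**Figure D2:**
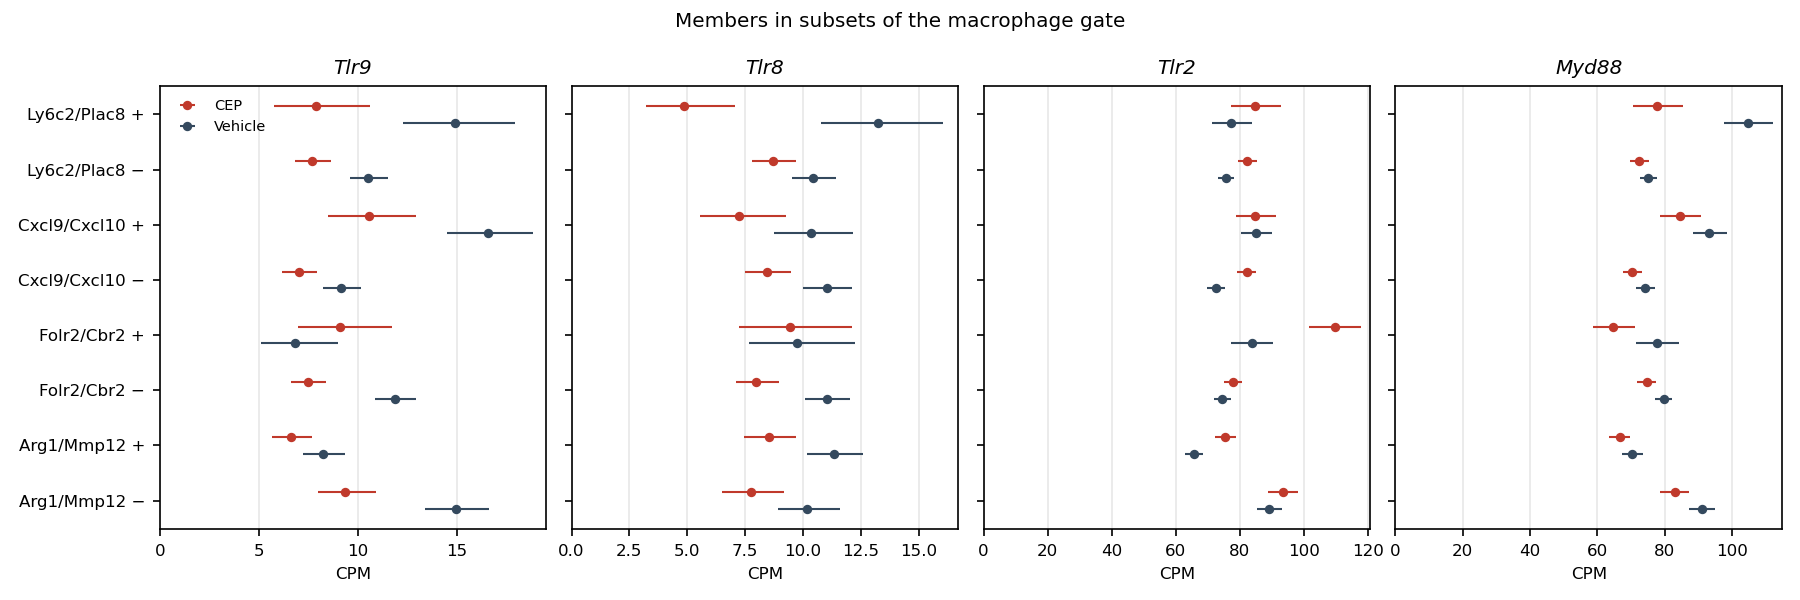
Level (CPM, linear axis from 0) of Tlr9, Tlr8, Tlr2 and Myd88 in subsets of the macrophage gate, with cells that pass (+) and do not pass (−) each gene pair, in the CEP library (red) and the Vehicle library (blue), with 95% Poisson intervals as lines. Tlr8 is lowest in the Ly6c2/Plac8 subset of CEP, the CEP point of Tlr9 lies under the Vehicle point in every subset shown except Folr2/Cbr2, and Tlr2 is highest in the Folr2/Cbr2 subset of CEP.

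TLR7 binds single-stranded RNA, and its gene did not follow its neighbour Tlr8. Tlr7 was 12.9 CPM (11.9 to 14.0) in CEP macrophages and 12.6 CPM (11.6 to 13.6) in Vehicle macrophages, for a log2 ratio of 0.04 (-0.12 to 0.20). Its level was highest in the few cells with Siglech, a marker of plasmacytoid dendritic cells, which are known for TLR7 and TLR9. There it had 7 UMIs in 8 CEP cells and 4 UMIs in 10 Vehicle cells, or 124 CPM (49.7 to 255) in CEP and 66.7 CPM (18.2 to 171) in Vehicle. In the same cells Tlr9 had 1 UMI in CEP and 0 in Vehicle. In the 191 CEP and 48 Vehicle macrophages with Gpnmb, a lysosomal glycoprotein gene, Tlr7 was 25.4 CPM (18.5 to 34.0) in CEP and 26.6 CPM (15.2 to 43.2) in Vehicle. The neutrophil gate held 3.33 CPM of Tlr7 in CEP and 2.86 CPM in Vehicle, and the epithelial gate 3 UMIs in CEP and 0 in Vehicle.

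TLR13, a mouse receptor for bacterial ribosomal RNA, differed from Tlr7, Tlr8 and Tlr9 in its place. Tlr13 was 100.3 CPM (91.3 to 110.0) in CEP neutrophils and 95.8 CPM (87.8 to 104) in Vehicle neutrophils. In macrophages it was 37.5 CPM (35.7 to 39.3) in CEP and 37.9 CPM (36.2 to 39.6) in Vehicle. Neutrophils thus had 2.68 times the macrophage level in CEP and 2.53 times in Vehicle. The interval of the log2 ratio held 0 in both gates, with values of 0.07 (-0.12 to 0.25) in neutrophils and -0.02 (-0.11 to 0.08) in macrophages. In neutrophils the interval lay above 0 with cells in 2 or more gates left out (0.20, 0.02 to 0.39) and with stricter gates (0.24, 0.03 to 0.45). Among macrophages, those with Gpnmb held most, at 63.3 CPM in CEP and 73.2 CPM in Vehicle, and those with Folr2 or Cbr2 held 50.7 CPM in CEP and 53.2 CPM in Vehicle. The T, dendritic and epithelial gates held at most 9.10 CPM in either library.

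TLR3 binds double-stranded RNA and is known for its high level in the cross-presenting dendritic cells (cDC1). Tlr3 was 50.5 CPM (37.0 to 67.4) in CEP and 44.5 CPM (32.3 to 59.7) in Vehicle dendritic-gate cells, 9.39 times the macrophage level in CEP and 7.35 times in Vehicle. Nearly all of it came from cells with Xcr1 or Clec9a, the cDC1 markers. These 43 CEP and 45 Vehicle cells held 43 of 46 CEP and 42 of 44 Vehicle Tlr3 UMIs, or 87.7 CPM (63.4 to 118) in CEP and 74.1 CPM (53.4 to 100.2) in Vehicle. Mature dendritic cells, marked by Ccr7 or Fscn1, had 0 UMIs in 32 CEP cells and 2 UMIs in 32 Vehicle cells. The dendritic log2 ratio was 0.18 (-0.44 to 0.81), and its sign turned with a stricter gate (-0.46, from 44 UMIs). Tlr3 alone of these receptors was higher in epithelial cells than in macrophages in both libraries, at 11.3 CPM (9.93 to 12.8) in CEP and 13.2 CPM (9.49 to 17.8) in Vehicle epithelial cells, against 5.38 CPM in CEP and 6.05 CPM in Vehicle macrophages. In the T gate it had 0 UMIs in 170 CEP and 258 Vehicle cells, which allows up to 3.51 CPM in CEP and 2.92 CPM in Vehicle.

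TLR4 is the lipopolysaccharide receptor of the cell surface. Tlr4 was 168 CPM (157 to 181) in CEP and 172 CPM (161 to 183) in Vehicle neutrophils, against 34.0 CPM (32.3 to 35.8) in CEP and 34.3 CPM (32.7 to 35.9) in Vehicle macrophages. That was 4.95 times the macrophage level in CEP and 5.01 times in Vehicle. Because macrophages carried more UMIs in all, the gap per cell was small, at 0.459 Tlr4 UMIs per CEP and 0.456 per Vehicle neutrophil, against 0.355 per CEP and 0.395 per Vehicle macrophage. The interval of the log2 ratio held 0 in both gates, with values of -0.03 (-0.17 to 0.11) in neutrophils and -0.01 (-0.11 to 0.09) in macrophages. Neutrophils differed among themselves. Those rich in granule genes (Ngp, Camp, Ltf), an immature stage, held 87.4 CPM in CEP and 81.7 CPM in Vehicle. Those with Ccl3 and Ccl4, inflammatory chemokine genes, held 249.7 CPM (217 to 287) in CEP and 188 CPM (161 to 218) in Vehicle, for a log2 ratio of 0.41 (0.11 to 0.71). Outside the Ccl3 and Ccl4 subset the Tlr4 log2 ratio was -0.17 (-0.33 to -0.01).

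TLR2 is the shared chain of the lipopeptide receptors. Tlr2 was 141 CPM (130.4 to 153) in CEP and 164 CPM (153 to 175) in Vehicle neutrophils, for a log2 ratio of -0.21 (-0.36 to -0.07). In macrophages it ran the other way, with 3594 UMIs and 82.7 CPM (80.0 to 85.4) in CEP against 3992 UMIs and 75.9 CPM (73.6 to 78.3) in Vehicle, for a log2 ratio of 0.12 (0.06 to 0.19). Thinned to 1000 UMIs a cell, the log2 ratio was -0.00 (-0.21 to 0.21) in macrophages and -0.05 (-0.30 to 0.20) in neutrophils. The macrophage difference was largest in the Folr2 or Cbr2 subset, at 109.6 CPM (102 to 118) in CEP and 83.7 CPM (77.3 to 90.5) in Vehicle (log2 0.39, 0.23 to 0.55). Outside it the log2 ratio was 0.06 (-0.01 to 0.13). In Cxcl9 or Cxcl10 macrophages the libraries were level, at 84.8 CPM in CEP and 85.1 CPM in Vehicle.

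In the epithelial gate Tlr2 was 14.5 CPM (13.0 to 16.2) in CEP, from 319 UMIs in 780 cells, and 6.58 CPM (4.07 to 10.1) in Vehicle, from 21 UMIs in 111 cells. The log2 ratio was 1.11 (0.50 to 1.85), and Tlr2 alone of the 4 members tested there passed the limit, where 5.19% of 10733 genes were higher. The other 3 tested were Myd88 (0.11), Tlr3 (-0.24) and Tlr4 (-0.32). With likely doublets kept the Tlr2 log2 ratio was 0.66 (0.17 to 1.23). The 6 macrophage markers summed to 25.8 CPM in CEP and 33.5 CPM in Vehicle epithelial cells, and the 6 neutrophil markers to 259 CPM in CEP and 199.6 CPM in Vehicle. The 4 fibroblast markers summed to 34.8 CPM in CEP and 3.45 CPM in Vehicle epithelial cells, with none at 0 in CEP and 2 at 0 in Vehicle. The part of other cells' RNA in this result was not tested.

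TLR1 and TLR6, the partners of TLR2, followed it in place. Tlr1 was 28.6 CPM (23.9 to 34.0) in CEP and 32.4 CPM (27.9 to 37.5) in Vehicle neutrophils, against 19.3 CPM in CEP and 19.5 CPM in Vehicle macrophages. Tlr6 was 27.3 CPM (22.7 to 32.6) in CEP and 34.7 CPM (30.0 to 40.0) in Vehicle neutrophils, against 5.20 CPM in CEP and 5.63 CPM in Vehicle macrophages. Tlr6 thus leaned to neutrophils more than its partners did, at 5.25 times the macrophage level in CEP and 6.17 times in Vehicle, where Tlr1 stood at 1.49 times in CEP and 1.66 times in Vehicle and Tlr2 at 1.71 times in CEP and 2.16 times in Vehicle. In neutrophils the log2 ratio was -0.34 (-0.68 to -0.01) for Tlr6 and -0.18 (-0.52 to 0.16) for Tlr1. In macrophages it was -0.11 (-0.37 to 0.14) for Tlr6 and -0.02 (-0.15 to 0.12) for Tlr1. Both genes were at or under 5 UMIs in the T and dendritic gates of each library, and Tlr1 had 1 UMI in the epithelial gate of each.

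MYD88 is the adaptor that the receptors share. Myd88 was found in every gate, at 138 CPM (127 to 149) in CEP and 157 CPM (147 to 168) in Vehicle neutrophils and at 102 CPM (82.5 to 125) in CEP and 101 CPM (82.3 to 123) in Vehicle dendritic cells. Macrophages held 73.1 CPM (70.6 to 75.7) in CEP and 79.4 CPM (77.0 to 81.8) in Vehicle. The lowest level was in epithelial cells, at 20.5 CPM (18.6 to 22.5) in CEP and 18.8 CPM (14.4 to 24.2) in Vehicle. The log2 ratio was -0.19 (-0.34 to -0.04) in neutrophils and -0.12 (-0.19 to -0.05) in macrophages. Thinned to 1000 UMIs a cell it was 0.04 (-0.21 to 0.28) in neutrophils and -0.00 (-0.24 to 0.23) in macrophages.

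Myd88 also varied within gates. In Ly6c2 or Plac8 macrophages it was 77.7 CPM (70.6 to 85.4) in CEP and 105 CPM (97.5 to 112) in Vehicle, for a log2 ratio of -0.43 (-0.60 to -0.26), while in the other macrophages the log2 ratio was -0.05 (-0.12 to 0.02). Of the macrophage subsets measured, Tlr8 and Tlr9 also had their lowest log2 ratios in it. Among neutrophils, Myd88 differed in sign between subsets, neither past the limit. In the Ccl3 and Ccl4 subset it was 142 CPM (117 to 170.3) in CEP and 105 CPM (84.9 to 128) in Vehicle (log2 0.44, 0.04 to 0.84). Outside that subset it was 137 CPM in CEP and 168 CPM in Vehicle (log2 -0.29, -0.46 to -0.13).

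In macrophages the 10 log2 ratios had a median of -0.07, against 0.02 over all genes tested. Intervals lay below 0 for Tlr8, Tlr9 and Myd88, where 14.3% of all genes did so, and above 0 for Tlr2, where 21.1% did so. In the same gate 21 genes known to respond to tissue dissociation had a median log2 ratio of 0.16, with 19 intervals above 0, and the 6 epithelial markers summed to 68.1 CPM in CEP and 22.8 CPM in Vehicle. Their part in the macrophage ratios was not tested. In neutrophils 7 of the 10 genes had at least 50 UMIs and a median log2 ratio of -0.19, against 0.09 over 8011 genes, and each of the 7 stood below that all-gene median. Intervals lay below 0 for Tlr2, Tlr6 and Myd88, where 10.8% of genes did so. These rest on few cells. Without the 36 CEP and 34 Vehicle neutrophil-gate cells that also stood in another gate, all 3 intervals held 0, at -0.09 (-0.24 to 0.06) for Tlr2, -0.25 (-0.60 to 0.08) for Tlr6 and -0.06 (-0.22 to 0.09) for Myd88. The all-gene median was then 0.02, and 2 of the 7 stood above it. With stricter gates the intervals also held 0, at -0.09 (-0.25 to 0.08) for Tlr2, -0.25 (-0.64 to 0.14) for Tlr6 and -0.14 (-0.31 to 0.03) for Myd88. Only Tlr8 passed the 0.5 limit, at 21 UMIs and 4.66 CPM (2.89 to 7.13) in CEP and 38 UMIs and 6.80 CPM (4.81 to 9.34) in Vehicle. Its log2 ratio of -0.53 (-1.39 to 0.26) held 0, and 3.03% of genes were lower and 21.7% higher by the same rule. That call was lost with likely doublets kept (-0.48), with cells in 2 or more gates left out (-0.43) and with stricter gates (-0.28).

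**Figure D3:**
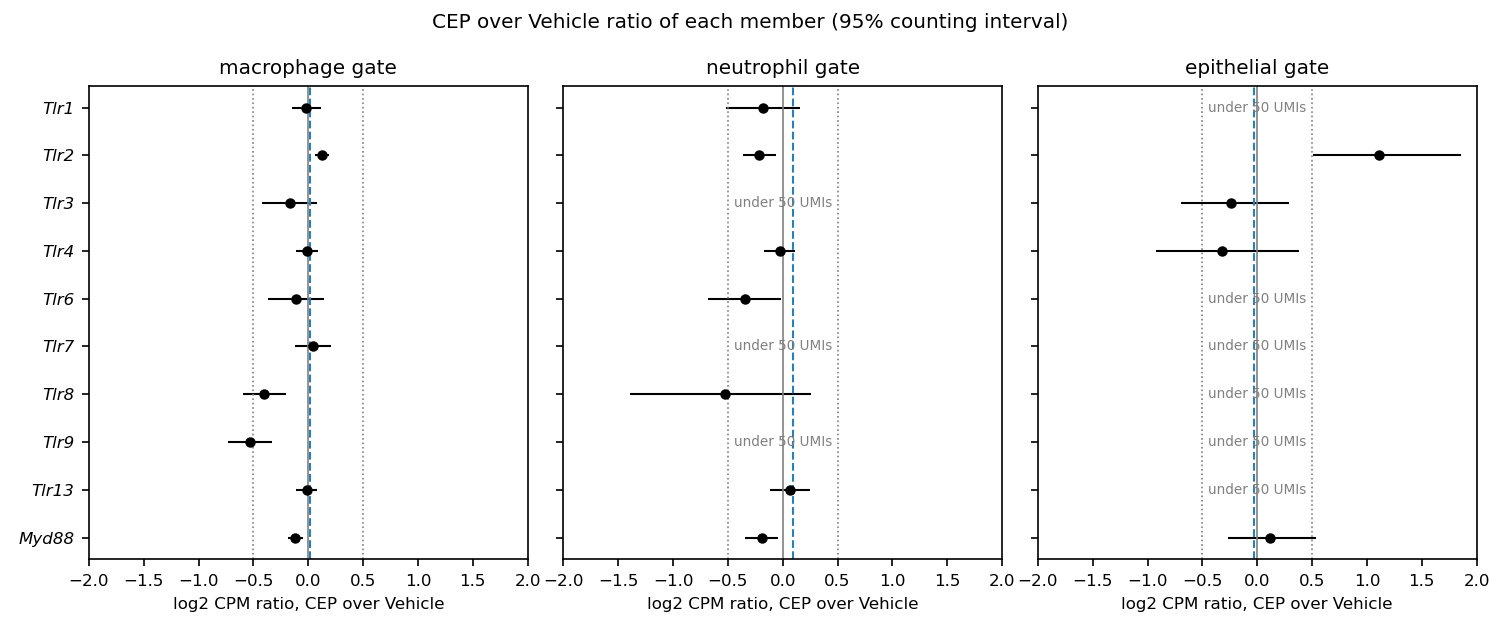
log2 ratio of CPM, CEP over Vehicle, of each of the 10 genes in the macrophage, neutrophil and epithelial gates, with 95% counting intervals as lines; dotted lines mark the 0.5 limit, the dashed blue line is the median of all genes tested in the gate, and genes under 50 UMIs are not drawn. Tlr9 in macrophages, Tlr8 in neutrophils and Tlr2 in epithelial cells pass the limit, and the neutrophil points all lie left of the all-gene median.

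Other measures also differed between the libraries in the neutrophil gate. The 13 mitochondrial genes had a median log2 ratio of 0.84 in neutrophils, all above the all-gene median, and 0.19 in macrophages. Fibroblast markers summed to 1508 CPM in CEP and 10.7 CPM in Vehicle neutrophils, with none of the 4 at 0 in CEP and 1 at 0 in Vehicle, and epithelial markers to 323 CPM in CEP and 51.2 CPM in Vehicle. Their part in the receptor ratios was not tested. Without the 240 CEP and 349 Vehicle cells of the gate that held under 20 UMIs of S100a8 and S100a9, the log2 ratio was -0.16 (-0.32 to 0.00) for Tlr2, -0.30 (-0.66 to 0.05) for Tlr6 and 0.03 (-0.12 to 0.17) for Tlr4.

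In the T gate the receptors were scarce, and only Myd88 reached 50 UMIs. It was 47.9 CPM (34.4 to 65.0) in CEP and 63.2 CPM (48.8 to 80.6) in Vehicle, for a log2 ratio of -0.39 (-1.0 to 0.19), in a gate where 8.34% of 4810 genes were lower by the 0.5 rule. Without the cells rich in S100a8 and S100a9, Myd88 was 28.9 CPM in CEP and 29.9 CPM in Vehicle, for a log2 ratio of -0.04 (-0.98 to 0.87). Without them Tlr2 was 21.7 CPM from 15 UMIs in CEP and 3.74 CPM from 3 UMIs in Vehicle, where all T-gate cells held 30.4 CPM in CEP and 22.4 CPM in Vehicle. In the dendritic gate only Tlr3 and Myd88 reached 50 UMIs, and neither passed the limit, where 7.1% of 4594 genes were higher and 6.25% lower. Dendritic Tlr9 had 11 UMIs in CEP and 7 UMIs in Vehicle, of which cDC1 held 10 in CEP and 5 in Vehicle.

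Monocytes had a gate of their own, and how many of its cells also stood in the 5 gates was not counted. In the 254 CEP and 307 Vehicle monocyte-gate cells (Ly6c2 and Plac8, low C1q), Tlr2 was 91.6 CPM (77.7 to 107) in CEP and 119 CPM (105 to 135) in Vehicle, for a log2 ratio of -0.38 (-0.68 to -0.08). Monocyte Tlr4 was 78.5 CPM (65.6 to 93.1) in CEP and 96.6 CPM (83.7 to 111) in Vehicle. Over all kept cells Tlr8 (-0.80) and Tlr9 (-0.90) were lower by the 0.5 rule, where 6.43% of 13976 genes were lower. The other 8 log2 ratios ran from -0.49 for Tlr6 to 0.21 for Tlr3. Tlr9 was 4.84 CPM in CEP and 9.01 CPM in Vehicle over all cells. The epithelial gate, which held no Tlr9 UMI, was 28.0% of kept CEP and 4.52% of kept Vehicle UMIs, and its part in these ratios was not tested.

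Around the receptors, 47 further genes of the pathway were read as a list. In macrophages 46 of them were tested and their median log2 ratio was -0.02, beside 0.02 over all genes. Among these, 1 was higher and 1 lower, where 5.38% of all genes were higher and 1.75% lower. The higher gene was Ctsk, at 21.7 CPM in CEP and 11.9 CPM in Vehicle (log2 0.87, 0.72 to 1.02). It encodes cathepsin K, an endosomal protease also known for digesting bone collagen. The lower gene was Cd36, a scavenger receptor that helps TLR2, at 6.44 CPM in CEP and 9.53 CPM in Vehicle (log2 -0.56, -0.78 to -0.35). By role, the 6 receptor accessory genes had a median of -0.18, the 12 trafficking genes -0.02, the 23 adaptor, kinase and factor genes 0.01 and the 4 negative regulators tested 0.22.

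Unc93b1, the carrier of the endosomal receptors, was 586 CPM in CEP and 665 CPM in Vehicle macrophages (log2 -0.18, -0.21 to -0.16). Cd14, the lipopolysaccharide co-receptor, was 1249.8 CPM in CEP and 1213 CPM in Vehicle macrophages (log2 0.04), and Ly96, which completes the TLR4 complex, had a log2 ratio of -0.12 (-0.27 to 0.02). The adaptors Tirap (0.10, -0.14 to 0.33) and Ticam1 (0.20, -0.00 to 0.40), the kinase Irak4 (-0.05, -0.17 to 0.07) and the ubiquitin ligase Traf6 (0.03, -0.10 to 0.17) had intervals that hold 0. So did Irak3, which encodes an inhibitory kinase (0.08, -0.11 to 0.27).

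In neutrophils 40 list genes were tested with a median of -0.04, beside 0.09 over all genes. Among these, 5 were higher and 3 lower, where 21.7% of all genes were higher and 3.03% lower. The higher ones were Ctsl (0.82), Hsp90b1 (0.75), Tab3 (0.66), Lgmn (0.58) and Lrrc59 (0.52). Ctsl and Lgmn encode endosomal proteases that trim receptors, Hsp90b1 a chaperone that folds them and Lrrc59 a protein of their export, and 4 of these 5 are trafficking genes. Ctsl was 667 CPM in CEP and 376 CPM in Vehicle neutrophils, and Hsp90b1 228 CPM in CEP and 136 CPM in Vehicle. The lower genes were Lbp (-0.64), which hands lipopolysaccharide to CD14, the kinase gene Map3k8 (-0.53) and Ly86 (-0.52), partner of the TLR4-like protein CD180. Map3k8 was 72.4 CPM in CEP and 105 CPM in Vehicle neutrophils. Cd14 was 4062 CPM in CEP and 4275 CPM in Vehicle (log2 -0.07), Unc93b1 149.9 CPM in CEP and 181 CPM in Vehicle (log2 -0.27, -0.41 to -0.13), and Ly96 had a log2 ratio of -0.43 (-0.87 to -0.01). The mitochondrial and fibroblast values given above belong to the same gate, where 21.7% of all genes were higher.

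**Figure D4:**
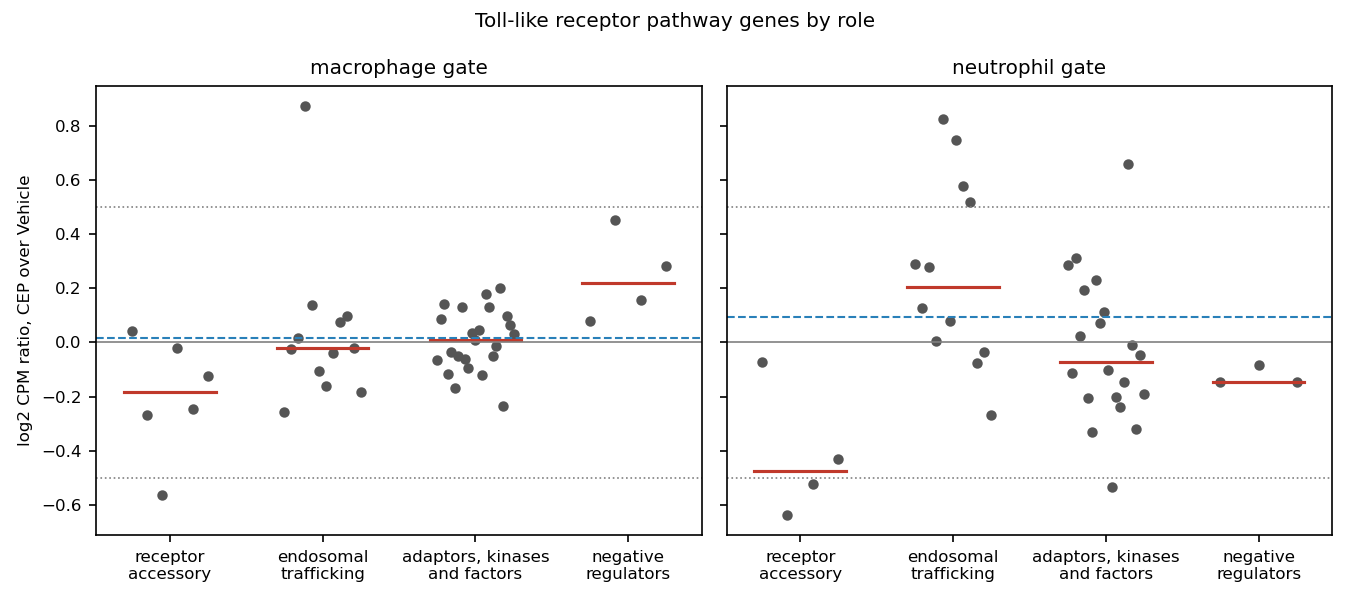
log2 ratio of CPM, CEP over Vehicle, of the tested genes of the pathway list by role in the macrophage and neutrophil gates; each point is a gene, red bars are role medians, dotted lines mark the 0.5 limit and the dashed blue line is the median of all genes tested. In neutrophils the trafficking genes reach 0.82 while the receptor accessory genes lie at or below -0.07.

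In the dendritic gate 25 list genes were tested, of which 6 were higher and 1 lower, beside 7.1% of all genes higher and 6.25% lower. In that gate 19 of the 20 tested dissociation genes stood above the all-gene median, with a median log2 ratio of 0.33, and their part in the list's values was not tested. Irf7, a factor that drives interferon genes, led with 356 CPM in CEP and 113 CPM in Vehicle (log2 1.65, 1.34 to 1.98). Lgmn (0.85), Map3k8 (0.74), Cd36 (0.69), the deubiquitinase gene Tnfaip3 (0.65) and the transporter gene Slc15a4 (0.55) were also higher, and Ctsl was lower (-0.50). Unc93b1 was 391 CPM in CEP and 399 CPM in Vehicle dendritic cells, and 2.69 CPM in CEP and 2.19 CPM in Vehicle epithelial cells. In the T gate 23 were tested, of which 7 were higher, led by Lbp (2.03), Irf5 (1.49) and Ctsl (1.42). Another 4 were lower, led by Pik3ap1 (-1.19), beside 8.21% of all genes higher and 8.34% lower. The 6 macrophage markers summed to 776 CPM in CEP and 410 CPM in Vehicle T-gate cells. The 6 neutrophil markers (28263 CPM in CEP, 42087 CPM in Vehicle) and the 4 fibroblast markers (463 CPM in CEP, 1343 CPM in Vehicle) ran the other way. The part of other cells' RNA in these values was not tested. In the epithelial gate 36 list genes were tested, of which Map3k8 was higher (1.03, 0.30 to 1.98) and Cd14 lower (-0.55, -0.87 to -0.21). Of all genes there, 5.19% were higher and 5.86% lower.

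Across the 10 values of 5 gates in 2 libraries, which share libraries and depth, some members ran together as a description. The highest correlations of log2(CPM + 1) between members were those of Tlr1 with Tlr13 (Pearson r = 0.96), Tlr4 with Tlr6 (0.95), Tlr2 with Tlr4 (0.93) and Tlr7 with Tlr9 (0.93). Tlr3 ran against Tlr4 (-0.74). Outside the members and among genes with at least 200 UMIs in some gate, the pattern most like that of Tlr9 was Arf3 (0.99), then Psap (0.98) and Ifi30 (0.98). For Myd88 these were Cd274 (0.99), Arpc3 (0.99) and Themis2 (0.99), for Tlr4 Foxo3, Cebpd and Prdx5 (0.98 each), and for Tlr8 Tpcn2 (0.98), C3ar1 (0.97) and Cd200r4 (0.96). The best match of each member ran from 0.979 for Tlr2 to 0.993 for Tlr6, so a high r here was common to all members.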

How the data were processed

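The deposited matrices hold counts, raw UMIs per gene and barcode with no normalization, per the file headers, and no barcode was under 500 UMIs. The submitters' processing notes give Cell Ranger 5.0.1 and the mm10 build; the matrix headers give version 7.1.0. Whether introns were counted was not given in the sources used here.

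A barcode needed 200 genes or more and a mitochondrial share of 15% or less (77 CEP and 57 Vehicle barcodes failed). Scrublet, run per library with seed 1, marked 1 CEP and 1 Vehicle doublet at its automatic threshold (0.0105% and 0.0101%), so the score that bounds the top 8% of each library was used, and cells over it, not those tied at it, were dropped (702 CEP and 778 Vehicle). Gates on raw UMIs were C1qa, C1qb and C1qc at 10 or more for macrophages; Csf3r and Cxcr2 at 1 or more with C1q under 3 for neutrophils; Cd3 genes at 2 or more with C1q under 3 for T; Flt3 at 1 or more with C1q under 10 for dendritic; and Krt8 and Krt18 at 10 or more with C1q under 10 for epithelial cells. In 2 or more gates stood 39 CEP and 35 Vehicle cells.

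UMIs were summed per gate and library and given as CPM with exact Poisson 95% intervals. For a log2 ratio, 0.5 UMI was added to both sums, with an interval from the exact conditional binomial distribution, and shares carry exact Clopper-Pearson intervals. A level at 0 is given as the limit that 3 UMIs allow. UMIs of a cell share its preparation, so intervals cover counting error only, and precision follows the UMIs summed, 43468646 in CEP and 52577769 in Vehicle macrophages but 910257 in CEP and 989234 in Vehicle dendritic cells. With 1 library per group no test was made. The interval code was tested on simulated data. The genes, the lists and the subsets were chosen with earlier results of these data known. From the pathway list the text names, per gate, at most 6 genes past the limit by size, and in any case Cd14, Ly96, Unc93b1, Tirap, Ticam1, Irak4, Irak3 and Traf6 where they reached 50 UMIs; for likeness, the 3 genes with the highest Pearson r of log2(CPM + 1). Genes with fewer UMIs are not all listed. Alternatives were all barcodes, doublets kept, a 10% mitochondrial limit, cells in 2 or more gates left out, stricter gates (each minimum doubled), the all-gene median subtracted, CPM averaged over cells, cells thinned to 1000 UMIs and a minimum of 20 UMIs. Comparisons of cells inside and outside a subset, and gates without cells low or high in S100a8 and S100a9, were chosen after seeing the data. Tools were scanpy 1.11.5, scipy 1.17.1, pandas 2.3.3, numpy 2.4.6 and matplotlib 3.10.9 under Python 3.11.15. Positions are from GENCODE M21 and promoters from RefSeq.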

Additional observations from a re-analysis of the deposited data

Results flagged for a closer look

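Tlr2 differed in sign between cell gates. Its log2 ratio of CPM, CEP over Vehicle, was 0.12 in macrophages and -0.21 in neutrophils, 0.34 apart, and it was 1.11 in epithelial cells, 1.32 above the neutrophil value. The difference between macrophages and neutrophils depended on the processing. Thinned to 1000 UMIs a cell, the log2 ratio was -0.00 (-0.21 to 0.21) in macrophages and -0.05 (-0.30 to 0.20) in neutrophils. The neutrophil interval also held 0 with cells in 2 or more gates left out (-0.24 to 0.06) and with stricter gates (-0.25 to 0.08). With 1 library per group the difference between gates was not tested.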

How the results depend on the processing

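Of 224 values for single genes under the alternatives, 215 stayed inside the counting interval of the main value. Tlr9 in macrophages kept its sign in all 9 settings, from -0.67 to -0.51. Thinned to 1000 UMIs a cell it was -0.51 (-1.15 to 0.11). Some of these values could not move. The minimum of 20 UMIs leaves the ratio of a single gene as it was. Leaving out cells in 2 or more gates changed no macrophage value, since no macrophage-gate cell stood in another gate. Tlr8 in macrophages ranged from -0.69 (thinned) to -0.39, Tlr2 in epithelial cells from 0.66 to 1.44, and Tlr7 in macrophages reached 0.23 with CPM averaged over cells. The counts of members past the limit rest on few genes. In macrophages 2 members were lower when thinned, in place of 1. In neutrophils 0 were lower with all barcodes, with doublets kept, with cells in 2 or more gates left out, with stricter gates and without cells low in S100a8 and S100a9, in place of 1; in the last of these Tlr8 stood at -0.65 but had 42 UMIs, under the minimum. In the T gate 1 was lower with all barcodes and with doublets kept, in place of 0. In the dendritic gate 1 was higher with averaged CPM and with a minimum of 20 UMIs, in place of 0. In epithelial cells 1 was lower with all barcodes, with doublets kept and with averaged CPM, in place of 0, and 0 were higher when thinned, in place of 1, since no member then reached 50 UMIs. Thinned, the pathway median was -0.20 in the dendritic gate over 4 genes (0.18 over 25) and 0.48 in the epithelial gate over 8 genes (0.05 over 36); fewer genes were tested by construction, and the cause was otherwise not tested. No paired analysis was possible because there is 1 library per group and the labels give no replicate numbers. Leaving out a replicate was not possible for the same reason. Few UMIs in all limit the T and dendritic gates most, where 1 and 2 members reached 50 UMIs.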

Other observations

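The family genes outside the 10 had places of their own. Tlr12, which in mice pairs with TLR11 to bind profilin of protozoa, was 18.4 CPM (17.1 to 19.7) in CEP and 22.9 CPM (21.6 to 24.3) in Vehicle macrophages, for a log2 ratio of -0.32 (-0.45 to -0.19). It was 20.9 CPM in CEP and 20.2 CPM in Vehicle dendritic cells, and had 0 UMIs in both neutrophil gates. Tlr11 was 16.5 CPM (9.22 to 27.2) in CEP and 24.3 CPM (15.5 to 36.1) in Vehicle dendritic cells, with 7 UMIs in CEP and 7 UMIs in Vehicle macrophages. Tlr5, the flagellin receptor gene, was 1.79 CPM in CEP and 2.05 CPM in Vehicle macrophages, and 2.44 CPM in CEP and 3.76 CPM in Vehicle neutrophils.

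Tlr1 in neutrophils with Ccl3 and Ccl4 was lower in CEP, at 25.7 CPM (15.9 to 39.3) in CEP and 44.7 CPM (32.1 to 60.7) in Vehicle, for a log2 ratio of -0.78 (-1.63 to -0.01), in the subset where the log2 ratio was 0.41 for Tlr4 and 0.44 for Myd88. Tlr6 outside the granule-rich neutrophils was 28.7 CPM (23.7 to 34.5) in CEP and 41.0 CPM (35.3 to 47.4) in Vehicle, for a log2 ratio of -0.51 (-0.86 to -0.17). These values were singled out after they were seen.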
